A study of Sus scrofa with 30 samples.

Results

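The comparison described here is that of pig cerebral cortex taken 30 min after the return of spontaneous circulation (ROSC) under saline with cortex taken at 0 min of cardiac arrest. It rests on 6 of the 30 arrays of the study, 3 biological replicates per group, chosen by their titles. The groups are called SAL30 and CA0. All animals were prepubertal farm pigs of a Swedish triple breed, of both sexes, 12 to 14 weeks old and of 25.8 ± 1.3 kg, ventilated under pentobarbital at 8 mg/kg/h. Arrest was ventricular fibrillation brought on by an alternating current, and all animals were killed with potassium chloride before the brain was taken. CA0 brains were removed at 0 min of arrest, with no resuscitation and no infusion, and it is not clear from the labels whether fibrillation was first induced in these animals. SAL30 animals had 12 min of arrest and 8 min of mechanical chest compression, then a countershock, and saline ran at 55 mL/kg/h from 1 min after the start of resuscitation until 50 min after ROSC, so their cortex was taken while the infusion ran. The groups thus differ in arrest, resuscitation, infusion and time under anaesthesia together, and these cannot be told apart between them. The other arrays used were 9 of arrest without resuscitation for 5, 20 or 30 min (CA5, CA20, CA30), 3 each at 60 and 180 min of ROSC under saline (SAL60, SAL180), and 3 at 30 min of ROSC with methylene blue at 7.5 mg/kg/h added to the saline (MB30). Methylene blue is a dye that blocks nitric oxide signalling.

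When blood returns to a brain that has been without it, cells meet oxygen, calcium and misfolded protein at once, and the first transcripts to appear are those that need no new protein to be made. They include immediate early transcription factors such as FOS and ATF3, the phosphatases and RNA regulators that switch the same signals off, and heat shock chaperones driven by the factor HSF1. Vessel cells and glia add secreted products, among them chemokines that draw neutrophils.

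Levels are given as intensity, the brightness of a probe set in arbitrary units after scaling of each array to a common mean. Differences are in log2(intensity + 16), a scale that understates the change of dim probe sets. A probe set was called where its two-sided limma p, adjusted by the Benjamini-Hochberg method over all 16799 probe sets tested, was under 0.05. Median intensity was 88.6 to 92.7 on the CA0 arrays and 95.1 to 105 on the SAL30 arrays. The log2 ratio of 3' to 5' signal of control transcripts, a sign of RNA quality, was 1.66 to 1.92 in CA0 and 1.22 to 1.35 in SAL30, with no overlap.

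The array labelled SAL30 replicate 1 stood apart from the rest and went against its tissue label. The log2 differences between SAL30 and CA0 are therefore given with and without it, except where stated. AVP, the precursor of vasopressin, stood at 4446 on this array and at 5.45 to 73.8 on the other 29. OXT, the precursor of oxytocin, stood at 3256 against 2.25 to 21.0. PMCH, the precursor of melanin-concentrating hormone, stood at 2854 against 6.92 to 24.3. These are peptide genes of hypothalamic neurons. HCRT, the orexin precursor, stood at 921 against at most 126, and TRH, which encodes thyrotropin-releasing hormone, at 589 against at most 138. Of 10 hypothalamic peptide genes on the array, 8 were at their highest of all 30 arrays there, AGRP and CARTPT being the exceptions.

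Genes of cortical neurons went the other way on that array. CCK, the cholecystokinin precursor, stood at 354 against 4255 to 9792 on the other 29 arrays, and CHRM1, a muscarinic receptor of the forebrain, at 26.2 against 356 to 1113. ENC1, a gene strong in cortex, stood at 614 against 4011 to 8157. All 8 cortical neuron genes on the array were at their lowest of all 30 arrays there. Both lists were chosen after these values were seen. SAL30 replicates 2 and 3 are among the 29 arrays of these ranges, at 36.7 and 33.5 for AVP and 5713 and 4847 for CCK. The median correlation of the array labelled SAL30 replicate 1 with the other arrays was 0.933, the lowest of 30 (others 0.944 to 0.970). Of its tested probe sets, 988 (5.88%) lay over 2-fold from the median of the others. The other arrays had 120 to 878 such probe sets, the 878 being on SAL180 replicate 3.

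**Figure D1:**
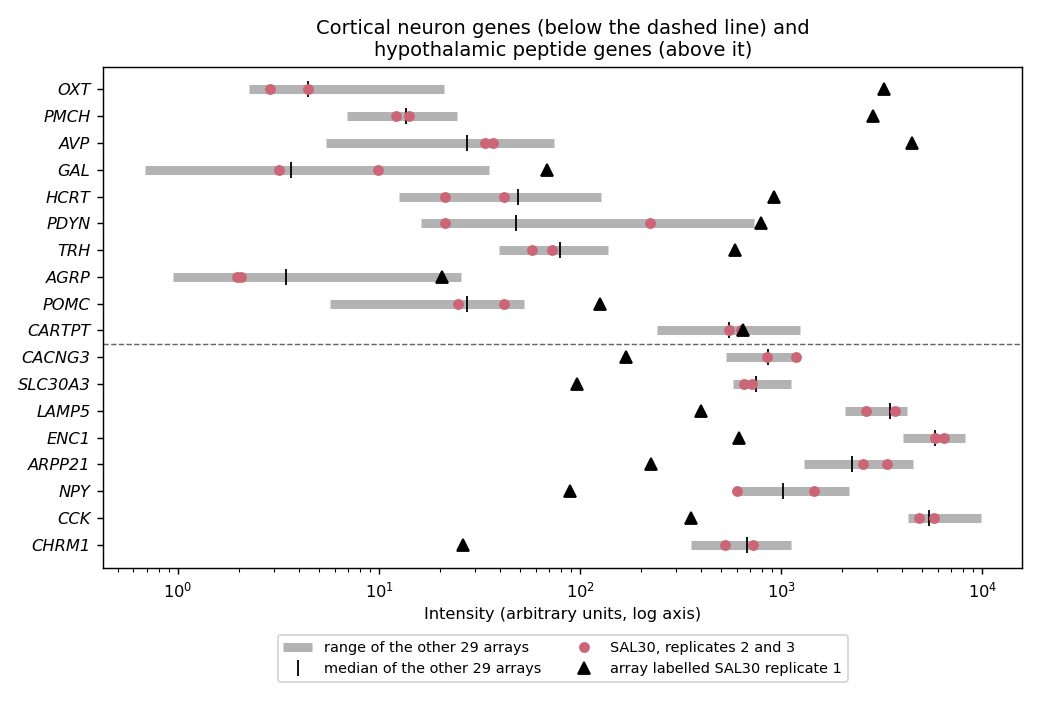
Intensity (arbitrary units, log axis) of 8 cortical neuron genes and 10 hypothalamic peptide genes. Grey bars span the other 29 arrays with their median, red points are SAL30 replicates 2 and 3, and the black triangle is the array labelled SAL30 replicate 1, which is the highest for 8 of the 10 peptide genes and the lowest for all 8 cortical genes.

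At 30 min of ROSC, a small set of transcripts was higher than in CA0, led by chaperones, stress transcription factors, signal brakes and secreted vessel and matrix products. With all arrays, 31 probe sets were higher (0.185% of those tested) and 2 lower (0.0119%). Without the array labelled SAL30 replicate 1, 27 were higher (0.161%) and 2 lower (0.0119%). Of the 33 called with all arrays, 28 were called in both fits, and all 33 kept their sign. The 5 called only with it were FOS, HPSE, IFRD1, DDIT4 and 1 probe set with no symbol, and ZFAND2A was called only without it. Of the 33, 23 carried a gene symbol and stood for 20 genes, all higher.

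In all 33 the arrays of both groups were fully separated, as they were upward in 6.24% and downward in 4.20% of all probe sets tested. An unadjusted p under 0.05 was found for 1240 probe sets with all arrays and for 687 without the array labelled SAL30 replicate 1, where 840 would be expected if none changed. A fit to the 6 arrays alone called 11 higher and 1 lower, and a fit with the 3'/5' ratio as a covariate called 27 higher and 5 lower.

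**Figure D2:**
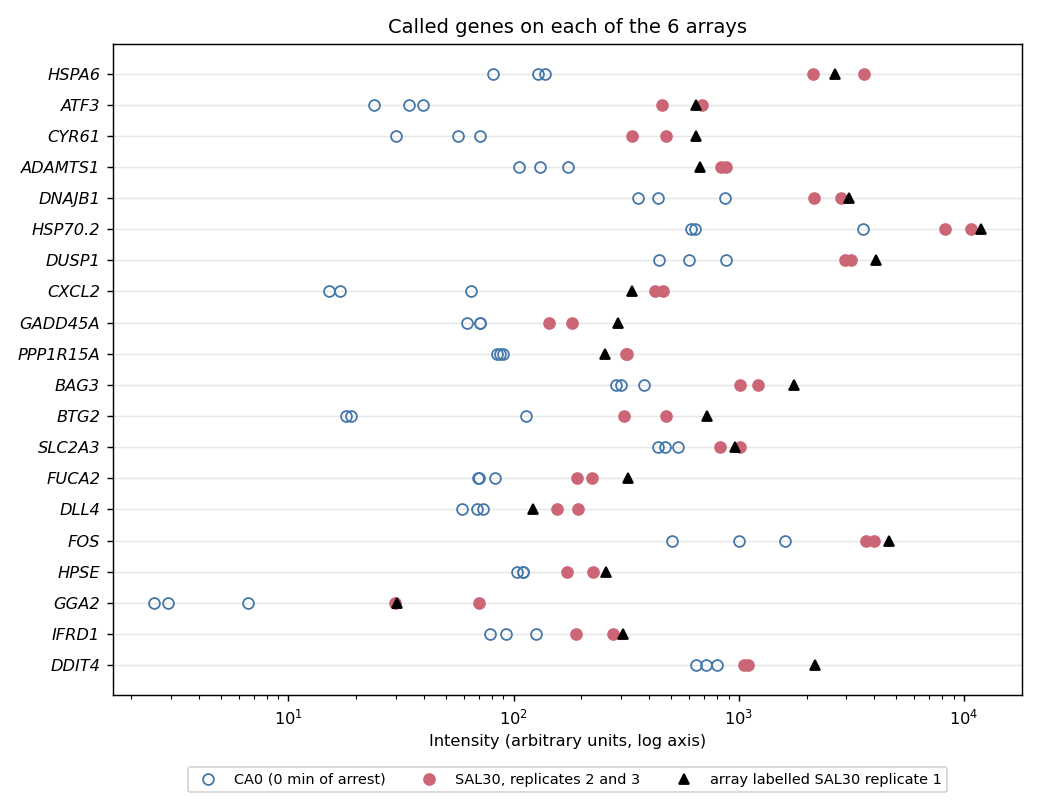
Intensity (arbitrary units, log axis) of the 20 called genes on each array, from the called probe set with the smallest p. Open circles are the 3 CA0 arrays, red points SAL30 replicates 2 and 3, and black triangles the array labelled SAL30 replicate 1. In each gene the SAL30 arrays all lie above the CA0 arrays, and for HSP70.2 CA0 replicate 2 stands far above the other CA0 arrays.

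Among heat shock genes, 4 of 29 tested members were called, all higher, with and without the array labelled SAL30 replicate 1. This and each later list count stands beside 0.185% called higher among all probe sets tested, or 0.161% without that array. The lists were chosen with earlier results of these data known and count 1 probe set per gene. Their counts are thus not a test of enrichment. HSPA6, an HSP70 chaperone that is nearly silent in unstressed cells, stood at 138, 128 and 81.1 on CA0 replicates 1, 2 and 3. On SAL30 replicates 1, 2 and 3 it stood at 2673, 2133 and 3602. The lowest reperfused array was thus far above the highest control array. The ratio of group means was 24.2, and the log2 difference was 4.41 ± 0.20 (SE, n = 3 per group, limma adjusted p = 3.55e-14), or 4.43 ± 0.22 without the array labelled SAL30 replicate 1 (adjusted p = 1.4e-12).

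HSP70.2, the main inducible HSP70, had 3 probe sets and all were called. On the one with the largest change it stood at 639, 3543 and 613 in CA0 and at 11913, 8250 and 10715 in SAL30. CA0 replicate 2 was over the other control arrays but under every SAL30 array. The log2 difference was 3.17 ± 0.39 (adjusted p = 2.57e-05), and it was 2.50 and 1.97 on the other probe sets. Without the array labelled SAL30 replicate 1 the differences were 3.05, 2.40 and 1.95 (adjusted p = 0.000472, 0.0028 and 0.00268). HSPA6 and HSP70.2 are close in sequence, and signal shared between their probe sets was not resolved.

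DNAJB1, the co-chaperone that loads clients onto HSP70, stood at 436, 867 and 357 in CA0 and at 3075, 2148 and 2829 in SAL30. CA0 replicate 2 was again the highest control array. The log2 difference was 2.33 ± 0.28 (adjusted p = 2.57e-05), or 2.23 ± 0.32 without the array labelled SAL30 replicate 1 (0.000472).

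BAG3, which couples HSP70 to the clearance of damaged proteins, stood at 300, 283 and 380 in CA0 and at 1764, 1010 and 1215 in SAL30, where the array labelled replicate 1 was the highest. Its log2 difference was 1.97 ± 0.30 (adjusted p = 0.000496), or 1.75 ± 0.32 without that array (0.0105). The second BAG3 probe set, dimmer, differed by 1.22 ± 0.30 and did not pass (adjusted p = 0.161, and 1.08 with 0.854 without that array). ZFAND2A, a stress-induced regulator of the proteasome, stood at 358, 355 and 204 in CA0 and at 460, 654 and 682 in SAL30, the array labelled replicate 1 being the lowest of its group. Its log2 difference was 0.96 ± 0.22 with all arrays (adjusted p = 0.0815) and 1.13 ± 0.24 without that array (adjusted p = 0.0378). The other 25 listed chaperones did not pass, and the median over the 29 was 0.10, or 0.04 without that array, beside 0.02 over all probe sets tested.

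Among immediate early transcription factors, 2 of 18 tested members were called, ATF3 and FOS, and without the array labelled SAL30 replicate 1 ATF3 alone was. ATF3, a stress-induced factor of the ATF/CREB family, stood at 34.2, 39.5 and 23.9 in CA0 and at 643, 454 and 686 in SAL30. All 3 reperfused arrays were over 10 times the control arrays. The ratio of means was 18.3, with a log2 difference of 3.64 ± 0.30 (adjusted p = 3.13e-08), or 3.58 ± 0.34 without that array (9.64e-07).

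FOS, a subunit of AP-1, started from a high and uneven level of 1605, 997 and 503 in CA0. In SAL30 it stood at 4648, 3675 and 4003. The SAL30 arrays lay close together and above all CA0 arrays. The log2 difference was 2.11 ± 0.41 (adjusted p = 0.0146), and 2.02 ± 0.46 without the array labelled SAL30 replicate 1, which ended the call (adjusted p = 0.105).

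Other early factors were above CA0 on every SAL30 array without passing the test. IER2 stood at 406, 208 and 159 in CA0 and at 624, 664 and 562 in SAL30 (log2 difference 1.31 ± 0.31, adjusted p = 0.0932, and 1.30 with 0.449 without the array labelled SAL30 replicate 1). IER2 was called with array weights (adjusted p = 0.042) and without CA0 replicate 1 (1.67, adjusted p = 0.00898). FOSL2, another AP-1 subunit, stood at 59.6, 70.4 and 55.1 and at 131, 114 and 113 (0.80 ± 0.19, adjusted p = 0.091, and 0.74 with 0.623 without that SAL30 array). EGR1, a factor of neuronal activity, overlapped between groups, at 2239, 936 and 750 in CA0 and 2769, 1565 and 1369 in SAL30 (0.63 ± 0.45, adjusted p = 0.77). Without the array labelled SAL30 replicate 1 the difference for EGR1 was 0.33 (adjusted p = 0.998). In 10 of the 18 factors the groups were separated upward, beside 6.24% of all probe sets, and the median log2 difference was 0.68, or 0.54 without the array labelled SAL30 replicate 1.

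Genes that end early signals were called in 2 of 11 tested members, with and without that array. DUSP1, a phosphatase that inactivates MAP kinases, stood at 880, 600 and 443 in CA0 and at 4087, 2957 and 3139 in SAL30. No array overlapped, and the array labelled SAL30 replicate 1 was the highest. The log2 difference was 2.42 ± 0.30 (adjusted p = 2.57e-05), or 2.27 ± 0.33 without that array (0.000501).

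BTG2, an antiproliferative gene that promotes mRNA decay, stood at 114, 18.9 and 17.9 in CA0 and at 725, 474 and 308 in SAL30. CA0 replicate 1 was the high control array here. The log2 difference was 3.19 ± 0.49 (adjusted p = 0.000597), or 2.90 ± 0.54 without the array labelled SAL30 replicate 1 (0.0117).

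RGS1, which shortens G-protein signals, stood at 53.9, 26.8 and 37.3 in CA0 and at 392, 126 and 104 in SAL30, so that the array labelled replicate 1 was over 3 times the other SAL30 arrays. The log2 difference, 1.82 ± 0.40, fell short of the threshold (adjusted p = 0.0543), and it was 1.27 without that array (adjusted p = 0.717). RGS1 was called without SAL30 replicate 2 (2.03, adjusted p = 0.0492) or SAL30 replicate 3 (2.15, adjusted p = 0.021) and with the replicate number as a block (adjusted p = 0.0369). RGS2, of the same family, stood at 1342, 1183 and 1223 in CA0 and at 2189, 1786 and 2136 in SAL30 (0.69 ± 0.17, adjusted p = 0.161, and 0.64 with 0.78 without that array).

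In the integrated stress and unfolded protein response, 2 of 19 tested members were called, and 1 without the array labelled SAL30 replicate 1. PPP1R15A, which restarts translation by directing a phosphatase to eIF2-alpha, stood at 89.6, 84.2 and 86.6 in CA0 and at 254, 315 and 319 in SAL30. The control arrays were nearly equal. Its log2 difference was 1.60 ± 0.24 (adjusted p = 0.000423), or 1.70 ± 0.27 without the array labelled SAL30 replicate 1 (0.00157).

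DDIT4, an inhibitor of mTORC1, stood at 804, 717 and 644 in CA0 and at 2172, 1049 and 1098 in SAL30. The group mean in SAL30 leaned on the array labelled replicate 1. With it the log2 difference was 0.90 ± 0.19 (adjusted p = 0.0425), and without it 0.57 ± 0.16 (adjusted p = 0.571). DDIT3, the factor CHOP of the unfolded protein response, overlapped between groups, at 314, 399 and 304 in CA0 and 456, 338 and 486 in SAL30 (0.31 ± 0.15, adjusted p = 0.67, and 0.26 with 0.998 without that array). The median over the 19 was -0.03 with and without it.

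Of growth arrest and apoptosis genes, 1 of 12 tested was called, with and without the array labelled SAL30 replicate 1. GADD45A, a stress sensor of DNA repair and growth arrest, stood at 61.7, 70.6 and 70.8 in CA0 and at 291, 182 and 144 in SAL30, with a log2 difference of 1.35 ± 0.19 (adjusted p = 0.000252), or 1.09 ± 0.19 without that array (0.00379). CDKN1A, the cell cycle inhibitor p21, stood at 155, 226 and 167 in CA0 and at 350, 254 and 220 in SAL30, which overlapped (0.54 ± 0.22, adjusted p = 0.638, and 0.36 with 0.998 without that array).

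Secreted and vessel-associated products included 1 of 14 tested cytokine, chemokine and adhesion genes and 2 of 24 tested vascular and matrix genes, and these counts were the same without the array labelled SAL30 replicate 1. CXCL2, a chemokine for neutrophils, stood at 64.7, 15.2 and 16.9 in CA0 and at 336, 462 and 424 in SAL30. CA0 replicate 1 was the high control array, and the array labelled SAL30 replicate 1 was the lowest of its group. The ratio of means was 12.6, and the log2 difference was 3.27 ± 0.43 (adjusted p = 7.87e-05), or 3.39 ± 0.48 without the latter array (0.000472).

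Other tested inflammatory genes did not pass. Of 24 listed cytokine, chemokine and adhesion genes on the array, 14 were bright enough to be tested. TNF, IL6, IL1A and CXCL8 were too dim and were not tested. CCL2, a chemokine for monocytes, stood at 191, 47.0 and 75.3 in CA0 and at 385, 216 and 132 in SAL30 (1.18 ± 0.57, adjusted p = 0.674, and 0.80 with 0.998 without the array labelled SAL30 replicate 1). IL1B stood at 89.4, 78.2 and 80.2 in CA0 and at 166, 91.1 and 77.4 in SAL30, where only the array labelled replicate 1 was clearly higher (0.31 ± 0.23, adjusted p = 0.777, and 0.02 with 0.998 without it). ICAM1, a leukocyte adhesion molecule of endothelium, stood at 196, 158 and 172 in CA0 and at 328, 241 and 163 in SAL30, which overlapped (0.40 ± 0.26, adjusted p = 0.746, and 0.17 with 0.998 without it). The summed intensity of 4 neutrophil and other leukocyte markers was 240 to 379 in CA0 and 423, 203 and 239 in SAL30.

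CYR61, a matrix-associated ligand of integrins, stood at 70.7, 30.0 and 56.4 in CA0 and at 648, 335 and 476 in SAL30. The groups were well apart, with the array labelled SAL30 replicate 1 the highest. Its log2 difference was 2.88 ± 0.29 (adjusted p = 2.01e-06), or 2.65 ± 0.32 without that array (3.08e-05).

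ADAMTS1, a protease that cells release to cut matrix proteoglycans, was called on both of its probe sets. On the brighter it stood at 174, 130 and 105 in CA0 and at 675, 837 and 876 in SAL30. The array labelled SAL30 replicate 1 was the lowest of its group. The log2 difference was 2.43 ± 0.25 (adjusted p = 2.21e-06) and 2.26 ± 0.24 on the other probe set (3.06e-06), or 2.54 and 2.36 without that array.

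DLL4, an endothelial Notch ligand, stood at 72.9, 58.7 and 68.9 in CA0 and at 122, 194 and 156 in SAL30 (1.05 ± 0.17, adjusted p = 0.00144, and 1.20 ± 0.18 without the array labelled SAL30 replicate 1). HPSE, the heparanase that cleaves heparan sulfate of the matrix, stood at 110, 104 and 110 in CA0 and at 258, 172 and 226 in SAL30. Its log2 difference was 0.90 ± 0.18 (adjusted p = 0.0184), and 0.78 ± 0.20 without that array (adjusted p = 0.253). Another tested HPSE probe set, dimmer, did not pass (0.56 ± 0.33, adjusted p = 0.719, given with all arrays only). The remaining HPSE probe sets were too dim to be tested. VEGFA, the endothelial growth factor, went the other way without passing, at 1337, 1025 and 877 in CA0 and 749, 830 and 957 in SAL30 (-0.33 ± 0.16, adjusted p = 0.67, and -0.25 with 0.998 without the array labelled SAL30 replicate 1). The median over the 24 vascular and matrix genes was 0.27, or 0.20 without the array labelled SAL30 replicate 1.

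Of 23 tested hypoxia and glycolysis genes, 1 was called, SLC2A3, the neuronal glucose transporter GLUT3. It stood at 537, 435 and 470 in CA0 and at 962, 828 and 1008 in SAL30, a log2 difference of 0.93 ± 0.15 (adjusted p = 0.000902), or 0.91 ± 0.17 without the array labelled SAL30 replicate 1 (0.00971). HIF1A and EPAS1, the oxygen-regulated factors, differed by 0.33 ± 0.16 and 0.48 ± 0.23 and did not pass (adjusted p = 0.688 and 0.673). Without that array they differed by 0.16 and 0.38 (adjusted p = 0.998 each). The list median was -0.05, or -0.02 without it.

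FUCA2, a secreted fucosidase, stood at 70.0, 69.7 and 82.4 in CA0 and at 322, 190 and 222 in SAL30 (1.51 ± 0.24, adjusted p = 0.000902, or 1.30 ± 0.25 without that array). GGA2, a clathrin adaptor, and IFRD1, an interferon-related regulator, were called on 1 probe set each, whereas the brighter probe set of the same gene differed by -0.09 ± 0.15 and 0.23 ± 0.20 (-0.18 and 0.21 without that array). The called GGA2 probe set was dim, at 2.53, 2.91 and 6.62 in CA0 and 30.4, 29.7 and 70.0 in SAL30 (1.51 ± 0.30, adjusted p = 0.0204, and 1.65 with 0.0306 without that array). For IFRD1 the difference was 1.24 ± 0.26 (adjusted p = 0.0324), and the call was lost without the array labelled SAL30 replicate 1 (1.11, adjusted p = 0.361).

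**Figure D3:**
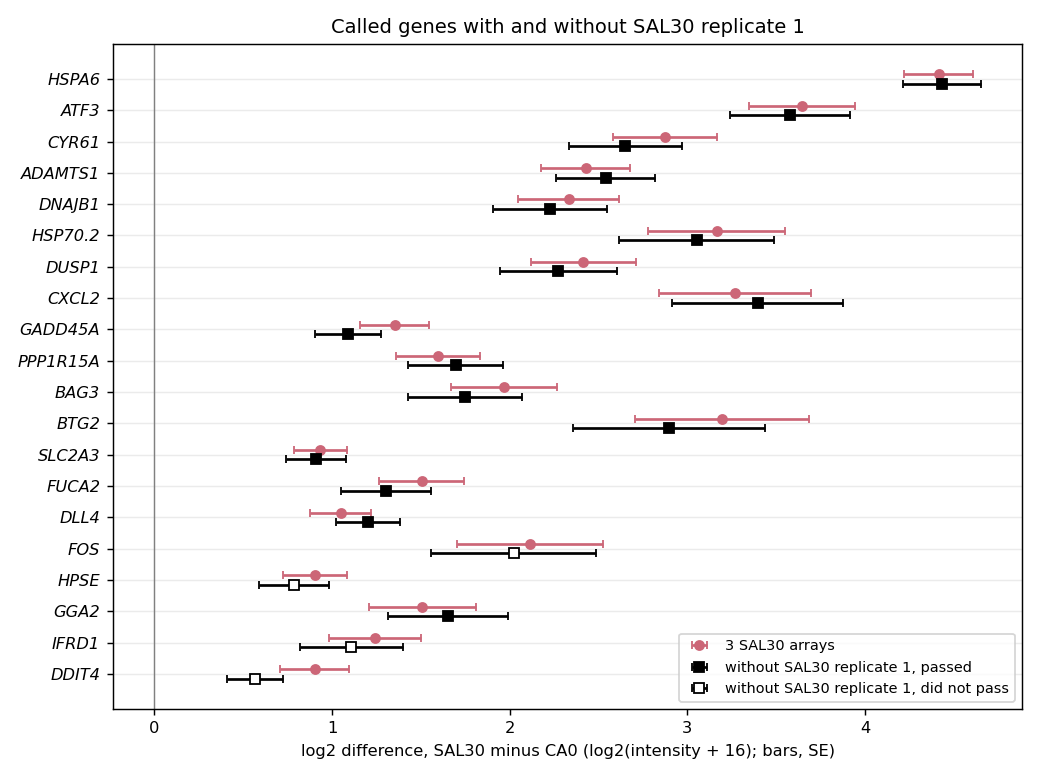
Log2 difference between SAL30 and CA0 (log2(intensity + 16), bars are SE from the fit) for the 20 called genes, with all 3 SAL30 arrays (red circles) and without the array labelled replicate 1 (squares, open where the gene no longer passed). FOS, HPSE, IFRD1 and DDIT4 are the open squares, and all 20 genes stay above 0.

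Of the 33 called probe sets, 10 had no gene symbol, 8 higher and 2 lower, and they are described because they passed. The one with the largest rise stood at 18.7, 31.6 and 36.0 in CA0 and at 700, 837 and 1005 in SAL30 (4.27 ± 0.46, adjusted p = 3.06e-06, and 4.40 without the array labelled SAL30 replicate 1). Of the lower ones, the first stood at 229, 239 and 230 in CA0 and at 17.1, 58.1 and 35.8 in SAL30 (-2.31 ± 0.31, adjusted p = 0.000102), and the other at 605, 524 and 503 in CA0 and at 322, 246 and 201 in SAL30 (-1.06 ± 0.22, adjusted p = 0.031). Both were also called without that array (adjusted p = 0.00226 and 0.0179), and no probe set with a symbol was called lower.

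**Figure D4:**
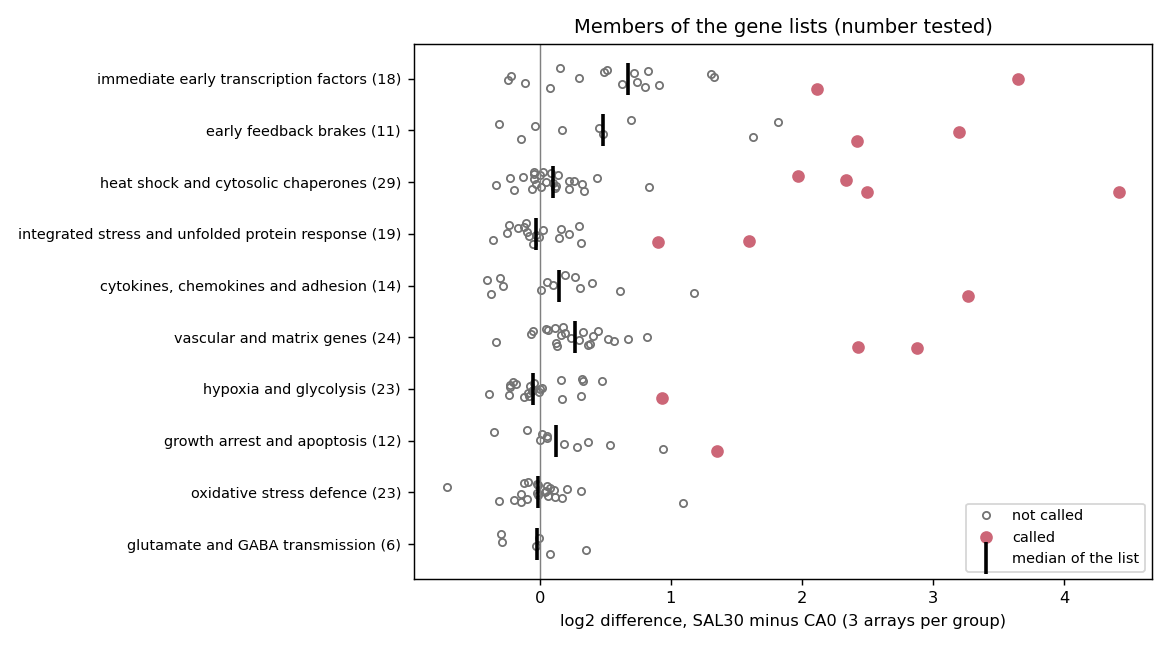
Log2 difference between SAL30 and CA0 with 3 arrays per group for each tested member of 10 gene lists (brightest probe set per gene, number tested in brackets). Filled points passed, open points did not, and bars are list medians, which run from -0.05 for hypoxia and glycolysis to 0.68 for immediate early transcription factors.

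Oxidative stress and transmission genes had no called member. HMOX1, the heme oxygenase, was above CA0 on every SAL30 array, at 25.4, 87.1 and 65.5 in CA0 and 168, 127 and 112 in SAL30, but did not pass (1.09 ± 0.30, adjusted p = 0.284, and 0.94 with 0.998 without the array labelled SAL30 replicate 1). Of 23 oxidative stress genes tested by limma, 2 had an unadjusted p under 0.05, beside 1240 of all 16799 probe sets tested. The median of the 23 was -0.01, or -0.08 without that array. PRDX3, TXNRD1 and NQO1 of this list differed by 0.32, -0.70 and -0.31 without passing (adjusted p = 0.638, 0.695 and 0.738). Without that array they differed by 0.28, -0.06 and -0.49 (adjusted p = 0.998 each). The 6 tested glutamate and GABA genes had a median of -0.02, with 0 at an unadjusted p under 0.05, and GAD1, which makes GABA, differed by 0.08 ± 0.18 (adjusted p = 0.947, and 0.02 with 0.998 without that array).

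Of 78 tested markers in 10 cell type lists, limma called none, and 4 had an unadjusted p under 0.05, or 1 without the array labelled SAL30 replicate 1. Over all 16799 probe sets tested, 1240 had such a p, or 687 without that array. Summed levels of the neuron and microglia lists differed on the array labelled SAL30 replicate 1. The sum over 12 neuron markers was 46530 there and 59239 to 68956 on the other 5 arrays. The sum over 7 microglia and macrophage markers was 4704 there and 1862 to 2741 on the other 5. C1QC, a complement subunit made by microglia, stood at 676, 647 and 1005 in CA0 and at 2034, 864 and 692 in SAL30. Between SAL30 replicates 2 and 3 and CA0 both sums overlapped. In whole tissue, fewer cells of a type and less RNA per cell cannot be told apart. The part of tissue makeup in the called genes was not tested.

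Against arrest without reperfusion, the same SAL30 arrays were higher than the mean of CA5, CA20 and CA30 in 59 probe sets (0.351%) and lower in 4 (0.0238%), or 37 (0.220%) and 3 (0.0179%) without the array labelled SAL30 replicate 1. This contrast shares the SAL30 arrays with the one above, so the values are set side by side only. HSPA6 stood at 102 ± 9.12 (SD, n = 3) in CA5, 126 ± 31.1 in CA20 and 137 ± 1.84 in CA30, and SAL30 was higher by 4.34 ± 0.16 on the log2 scale (adjusted p = 3.76e-16, and 4.36 with 5.5e-14 without that array). ATF3 stood at 77.1 ± 45.5, 66.2 ± 19.8 and 26.9 ± 5.11, with a log2 difference of 3.18 ± 0.24 (adjusted p = 6.98e-09, and 3.12 with 5.36e-07 without it). CXCL2 stood at 44.9 ± 40.0, 21.4 ± 10.7 and 17.6 ± 4.53, with 3.38 ± 0.35 (adjusted p = 7.49e-07, and 3.51 with 1.45e-05 without it). For these genes arrest without reperfusion left levels far below every SAL30 array.

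FOS stood at 1837 ± 1111 in CA5, 1117 ± 619 in CA20 and 638 ± 132 in CA30, and was called in this contrast (2.03, adjusted p = 0.00108), also without the array labelled SAL30 replicate 1 (1.93, adjusted p = 0.0242). DDIT4 was called here too (1.04, adjusted p = 0.000366, and 0.70 with 0.0136 without that array). GGA2 was not: its dim probe set stood at 40.0 ± 5.48, 25.3 ± 11.0 and 32.1 ± 13.8, close to SAL30 at 43.4 ± 23.1, a log2 difference of 0.27 (adjusted p = 0.748, and 0.41 with 0.999 without that array). For GGA2 the 3 CA0 arrays lay below every array of CA5, CA20 and CA30. IFRD1 did not pass in this contrast either (0.91, adjusted p = 0.0579, and 0.78 with 0.689 without the array labelled SAL30 replicate 1). Among the called probe sets with no symbol, differences of -0.25 and -0.56 did not pass (adjusted p = 0.832 and 0.354). Without that array they were -0.22 and -0.73 (adjusted p = 0.999 and 0.351).

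Later under saline, no probe set was called between SAL60 and SAL30 by limma, with 537 at an unadjusted p under 0.05 and a smallest adjusted p of 0.164. CXCL2 had already come down to 63.2, 67.4 and 114 on the SAL60 arrays, below all SAL30 arrays, which made a log2 difference of -2.14, short of the threshold (adjusted p = 0.289, and -2.27 with 0.48 without the array labelled SAL30 replicate 1). DUSP1 stood at 1235, 1663 and 1521 in SAL60, also below all SAL30 arrays (-1.19, or -1.05 without that array, neither passing). HSPA6 stood at 3579, 2664 and 3776, overlapping SAL30.

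Between SAL180 and SAL30, 70 probe sets were higher at 180 min (0.417%) and 40 lower (0.238%), or 50 (0.298%) and 31 (0.185%) without the array labelled SAL30 replicate 1. The 110 calls became 4 when only these groups were fitted, 282 with array weights and 43 without SAL180 replicate 3. The log2 3'/5' ratio was 1.39 to 2.60 in SAL180, highest on replicate 3, and 1.22 to 1.35 in SAL30, with no overlap. CXCL2 stood at 23.5, 18.8 and 47.6 in SAL180, inside the range of CA0, a log2 difference of -3.24 ± 0.43 (adjusted p = 0.000226, and -3.37 with 0.00093 without the array labelled SAL30 replicate 1). DUSP1 stood at 1304, 1200 and 887, lower than at 30 min by a log2 difference of -1.58 ± 0.30 (adjusted p = 0.00906, and 0.0468 without the array labelled SAL30 replicate 1). The chemokine and the phosphatase thus had their highest saline levels at 30 min.

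Of the chaperones HSPA6, BAG3, DNAJB1 and HSP70.2, only HSPA6 passed in the same contrast with all arrays. HSPA6 stood at 4886, 5731 and 4404 in SAL180, above all SAL30 arrays, a log2 difference of 0.86 ± 0.20 (adjusted p = 0.0333) whose call was lost without the array labelled SAL30 replicate 1 (0.84, adjusted p = 0.103). BAG3 stood at 2217, 3034 and 2573 in SAL180, also above SAL30, without passing (0.99 ± 0.30, adjusted p = 0.132, and 1.21 with 0.11 without that array). DNAJB1 stood at 1967, 2063 and 1764, below all SAL30 arrays, and did not pass either (-0.46 ± 0.28, adjusted p = 0.491, and -0.35 without that array). HSP70.2 differed by 0.11 ± 0.39 (adjusted p = 0.924, and 0.23 without that array). FUCA2 stood at 459, 624 and 547 and rose further by 1.12 ± 0.24 (adjusted p = 0.0213, and 0.0151 without that array). ATF3 stood at 224, 316 and 346, below all SAL30 arrays, and CYR61 at 153, 296 and 281, and neither passed (-0.97 and -0.95, adjusted p = 0.144 each, and -0.90 and -0.73 without that array).

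**Figure D5:**
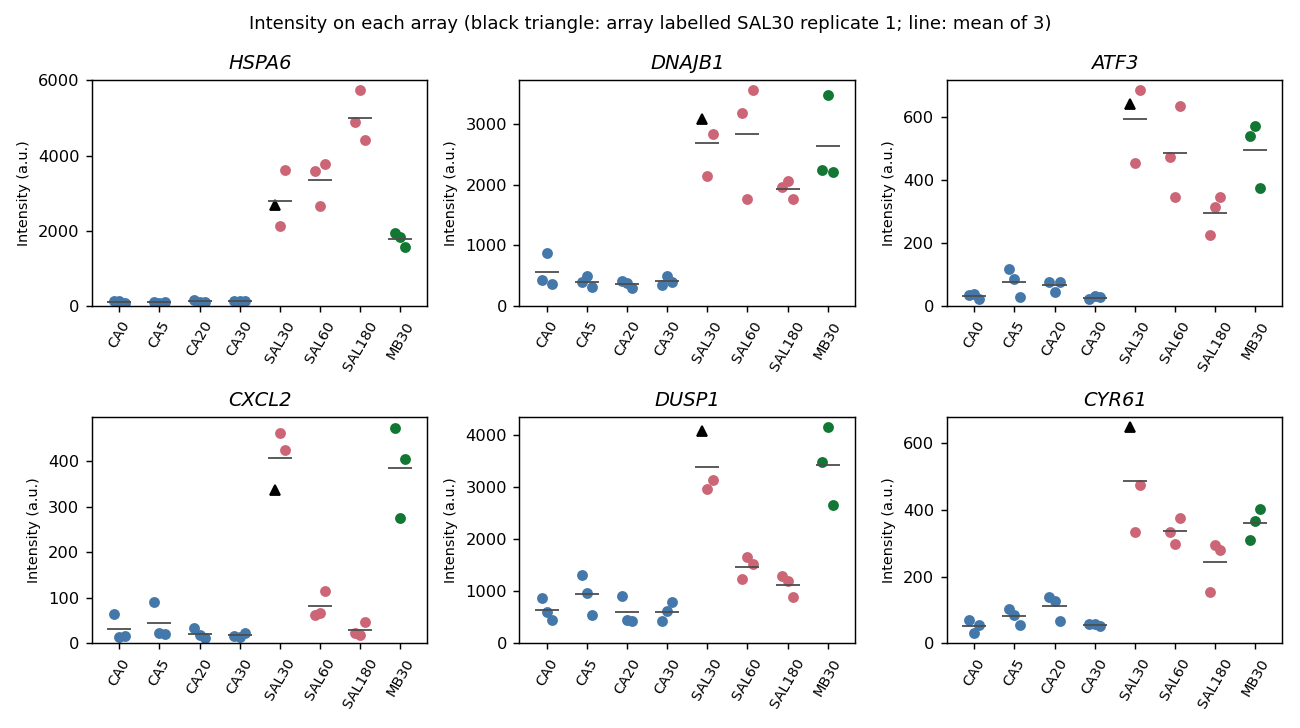
Intensity (arbitrary units, axes from 0) of 6 called genes on each array of 8 groups, with the mean of each group as a line. Blue points are arrest without reperfusion, red points saline, green points methylene blue, and the black triangle is the array labelled SAL30 replicate 1. CXCL2 and DUSP1 are highest at 30 min of ROSC, and HSPA6 has its highest mean at 180 min.

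With methylene blue in the infusion at the same time, 403 probe sets were higher in MB30 than in SAL30 (2.40%) and 284 lower (1.69%), or 178 (1.06%) and 68 (0.405%) without the array labelled SAL30 replicate 1. The log2 3'/5' ratio was 0.85 to 0.88 in MB30 and 1.22 to 1.35 in SAL30, with no overlap, and with this ratio as a covariate 490 probe sets were called where the fit without it called 687. The 687 became 27 when only these groups were fitted, and ran from 246 without SAL30 replicate 1 to 1117 without SAL30 replicate 3. The genes called in SAL30 against CA0 did not pass in this contrast. HSPA6 stood at 1940, 1846 and 1567 in MB30, below all SAL30 arrays (-0.62 ± 0.20, adjusted p = 0.0666, and -0.64 with 0.148 without the array labelled SAL30 replicate 1). CXCL2 stood at 473, 275 and 404, around the SAL30 levels (-0.10 ± 0.43, adjusted p = 0.92, and -0.23 without that array), as did DUSP1 at 3494, 4161 and 2652 (0.01 ± 0.30, adjusted p = 0.993, and 0.15 without it). HPSE had a log2 difference of -0.59 ± 0.18 (adjusted p = 0.0568, and -0.47 with 0.226 without it). A p over the threshold does not show equal levels, since the SE of these differences was 0.18 to 0.43.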

How the data were processed

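Cortex RNA of 30 pigs was hybridised to an Affymetrix porcine array. The authors deposited intensity values on a linear scale, scaled per array with GCOS per the submitters' processing notes (its version and signal algorithm: not given in the sources used here). The mean over probe sets, leaving out 2% at each end, was 300.05 to 300.06 on each array. Detection calls, slide and scan were not used here. Of 24123 probe sets, 124 controls (AFFX) were left out. The 30% with the lowest mean, under an intensity of about 29.5, were filtered, which left 16799. Of the 23999, 10110 had 1 symbol in the platform's table, 157 several and 13732 none.

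Values were taken as log2(intensity + 16) and fitted with limma 3.58.1 in R 4.3.3, as 1 model of all 10 groups with 20 residual degrees of freedom. Variances were moderated by empirical Bayes with an intensity trend, and p-values, two-sided, were adjusted by the Benjamini-Hochberg method for each contrast separately and called under 0.05. The fit was repeated without the array labelled SAL30 replicate 1. A permutation test of 3 against 3 could not go below 0.1 and was not run. The script was tested on simulated data.

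Genes of the main comparison were taken from a set fixed by rule. It held those called with 1 symbol in either fit and the 4 members of each gene list with the smallest p. It also held the 2 brightest markers of each cell type list, and HSPA6, ATF3, CXCL2, FOS, EGR1, HSP70.2, IL1B, VEGFA and SLC2A3. Not every member of this set is given in the text, and most cell type markers are not. List values use the brightest probe set of a gene. The comparison, members and lists were chosen with earlier results of these data known. Alternatives were other pseudocounts, filters, normalizations, fits and covariates, weights per array, a block for the replicate number, and each array of a contrast left out in turn. Chosen after seeing the data was the removal of 5 arrays (SAL30 replicate 1, CA20 replicates 2 and 3, SAL60 replicate 2 and SAL180 replicate 3) that differed in tissue genes or in 3'/5' ratio.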

Additional observations from a re-analysis of the deposited data

Results flagged for a closer look

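Several genes called at 30 min of ROSC, or named beside them, differed between 180 and 30 min. The test was SAL180 against SAL30 directly (limma, log2 difference and adjusted p). It shares the SAL30 arrays with the comparison to CA0, so for called genes a return toward CA0 levels is favoured by the choice. HSPA6 differed by 0.86 (0.0333) and FUCA2 by 1.12 (0.0213), both higher at 180 min, but without the array labelled SAL30 replicate 1 the HSPA6 call was lost (0.84, 0.103), while FUCA2 kept its own (1.32, 0.0151). DDIT3, which did not pass at 30 min, was higher at 180 min by 0.76 (0.0102), as was PLEK, a leukocyte gene, by 1.28 (0.0473), and both passed without that array (0.0199 and 0.0486). DUSP1 differed by -1.58 (0.00906) and CXCL2 by -3.24 (0.000226), both lower at 180 min and both called without that array (0.0468 and 0.00093). Of the probe sets with no symbol, a pair higher than CA0 at 30 min differed by -1.08 (0.0235) and -2.39 (0.00333), and one lower than CA0 at 30 min differed by 1.78 (0.0042), and these passed without that array too (0.0374, 0.0151 and 0.0356).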

How the results depend on the processing

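No called probe set changed sign in the settings where it was tested, 18 at most, and 11 of 33 were called in all of theirs: HSPA6, ATF3, CYR61, both of ADAMTS1, DUSP1, CXCL2, PPP1R15A, BAG3 and a pair with no symbol. DNAJB1, HSP70.2, GADD45A, BTG2, SLC2A3, FUCA2 and DLL4 lost their calls when only the 6 arrays were fitted (adjusted p 0.0643 to 0.477). FOS and IFRD1 lost theirs in 6 settings each, HPSE and GGA2 in 8 and DDIT4 in 11. Calls were gained by RGS1 in 3 settings, by IER2 and ZFAND2A in 2 each, and by GADD45B in 1 (adjusted p 0.00898 to 0.0492). Fitting only the groups of a contrast gave 11 higher and 1 lower for SAL30 against CA0, 36 higher for SAL30 against CA5, CA20 and CA30, 1 for SAL60, 4 for SAL180 and 27 for MB30 against SAL30. Lower probe sets against CA0 numbered 1 with the 50th percentile filter and 5 with median centring or the 3'/5' covariate. Array weights gave 9 lower against CA5, CA20 and CA30 and 282 for SAL180, where the covariate gave 64. A pseudocount of 64 gave 2 for SAL60. Without the 5 arrays apart, the counts were 27 higher and 1 lower against CA5, CA20 and CA30, 28 for SAL180 and 281 for MB30. The cause of these shifts was not tested.

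With each array left out in turn, the counts ran from 23 to 35 higher and 1 to 7 lower against CA0, 37 to 89 higher and 3 to 57 lower against CA5, CA20 and CA30, 0 to 0 for SAL60, 43 to 107 for SAL180 and 246 to 1117 for MB30. The 7 and the 57 lower, the 89 higher and the 1117 came without SAL30 replicate 3. With the replicate number as a block, 32 were higher and 3 lower against CA0. Deviations of same-numbered arrays from their group means correlated at -0.17, -0.19 and 0.03, and those of unlike-numbered arrays at -0.06 to 0.20. The means include the array labelled SAL30 replicate 1, so these values cannot settle whether the numbers pair the samples. Limits are the 3 arrays per group, no measure of depth on arrays, and 1 array of 3 that goes against its tissue label.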

Other observations

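Some genes that were higher at 180 min than at 30 min of ROSC stood near their CA0 level at 30 min. They are described after their values were seen. HSPB8, a small heat shock protein, stood at 799 ± 143 (SD, n = 3) in CA0, 779 ± 55.6 in SAL30 and 1810 ± 269 in SAL180. SAL180 against SAL30, the log2 difference was 1.19 ± 0.15 SE (limma adjusted p = 0.000163, and 1.25 with 0.000492 without the array labelled SAL30 replicate 1). CEBPD, a transcription factor of the acute phase, stood at 157 ± 61.3, 177 ± 69.1 and 685 ± 38.3 (1.92 ± 0.34, adjusted p = 0.00453, and 2.19 with 0.00523 without that array). ODC1, the first enzyme of polyamine synthesis, stood at 604 ± 38.1, 594 ± 73.7 and 1052 ± 112 (0.81 ± 0.13, adjusted p = 0.00289, and 0.89 with 0.00523 without that array). These genes were picked for standing near CA0 at 30 min, so their lack of a call there follows from the choice. HSPA6 and FUCA2, which were called at 30 min, were also higher at 180 min than at 30 min with all arrays.

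CKS2, a subunit of cyclin-dependent kinases, stood at 109 ± 41.7 in CA0, 237 ± 58.4 in SAL30 and 78.6 ± 20.7 in SAL180. Its log2 difference between SAL30 and CA0, given here with all arrays only, was 1.04 ± 0.23 and did not pass (limma adjusted p = 0.0637). SAL180 was lower than SAL30 by a log2 difference of -1.42 ± 0.23 (adjusted p = 0.00289, and -1.24 with 0.0207 without the array labelled SAL30 replicate 1).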
